A study of Mus musculus with 2 samples.

Results

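The genes described here are 10 components of the MHC class I antigen pathway that cut, trim and load peptides or switch the pathway on: Psmb8, Psmb9, Psmb10, Psme1, Psme2, Tap1, Tap2, Tapbp, Erap1 and Nlrc5. They were taken by gene symbol, and each of the 10 symbols was found on 1 of the 51912 gene rows. All 10 passed the filter on low values, a mean level of at least 1 CPM over both libraries, as did 13015 genes in all. CPM is a count divided by its library total, itself scaled by a TMM factor given below, and multiplied by 1e+06. The libraries came from mouse embryonic fibroblasts on a C57BL/6 background, immortalized with SV40 T antigen and exposed to adenovirus carrying Cre recombinase. The KS line kept wild-type Usp16, and the UKS line, whose Usp16 alleles were floxed, had Usp16 deleted. Each line gave 1 RNA-seq library, so the genotype and any other difference between these lines or cultures cannot be told apart. No p-value is given for this reason. Brackets hold exact 95% intervals of a ratio of counts, which cover counting error only.

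Cells display fragments of their own proteins on MHC class I molecules, where cytotoxic T cells can read them. The proteasome cuts the proteins. In cells exposed to interferon-gamma its catalytic subunits are replaced in new particles by the inducible subunits encoded by Psmb8, Psmb9 and Psmb10, which gives the immunoproteasome, and the PA28 activator encoded by Psme1 and Psme2 can cap it. The TAP transporter, a pair of TAP1 and TAP2, carries peptides into the endoplasmic reticulum, ERAP1 trims them there, and tapasin, the product of Tapbp, holds empty class I molecules next to the transporter. NLRC5 is a transcriptional activator of class I genes and of several of these partners. Fibroblasts that are not stimulated are known to hold mostly the constitutive proteasome.

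Tap1, Tap2, Psmb8 and Psmb9 lie side by side in the mouse MHC on chromosome 17 of GRCm38. Psmb9 (34181987 to 34187764, minus strand) and Tap1 (34187553 to 34197225, plus strand) are transcribed away from each other and overlap by 212 bp in GENCODE M21, and their RefSeq start sites are 226 bp apart. Psmb8 (34197721 to 34201454) and Tap2 (34203527 to 34216321) follow Tap1 on the plus strand, and Tapbp (33915899 to 33929292, plus strand) lies in the same complex. Psme1 (55578123 to 55581529, plus strand) and Psme2 (55587441 to 55591113, minus strand) are neighbours on chromosome 14. Psmb10 (105935735 to 105938444, minus strand) and Nlrc5 (94434356 to 94527272, plus strand) are far apart on chromosome 8, and Erap1 (74639568 to 74693201, plus strand) is on chromosome 13. All 10 are annotated as protein-coding.

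The RefSeq promoter table (GRCm38.p6) held 8 of the 10 genes, all but Tap2 and Nlrc5. Windows of 250 bases before to 50 after each start were searched on both strands for 4 motifs: TTCNNNGAA (the GAS element of interferon-gamma signalling), GAAA, 2 bases of any kind and GAAA again (the ISRE bound by IRF and ISGF3 factors), CCAAT (bound by NF-Y, a partner of NLRC5) and the kB motif of NF-kB. The stretches below, 30 bases each and 5′ to 3′ on the strand of the gene, show the matches in 4 of these genes with the motif in capitals. They are shown as strings that match these motifs near the RefSeq starts, and no link to the ratios of the genes was tested.
Psmb8, GAS, chr17:34198087-34198116, plus strand: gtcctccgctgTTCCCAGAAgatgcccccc
Psme1, ISRE, chr14:55578493-55578522, plus strand: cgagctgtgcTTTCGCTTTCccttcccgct
Erap1, ISRE, chr13:74639839-74639868, plus strand: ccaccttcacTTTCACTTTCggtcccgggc
Psmb9, CCAAT box, chr17:34187322-34187351, minus strand: cgcgcagccgctgATTGGaaagccgagccc
Positions are given from the RefSeq start, which differs from the outermost start of the gene in GENCODE M21. The GAS match of Psmb8 began 97 bases before its RefSeq start. The ISRE of Erap1 ran across its start from 4 bases before it, and that of Psme1 lay just after its start, beginning at base 10. The CCAAT box of Psmb9 began 8 bases before its start and is the same site as a match 222 bases before the start of Tap1, since both genes share the DNA between their starts. Tapbp held a CCAAT box at 248 and at 165 bases before its start. By GENCODE, which has longer transcripts of these genes, the first base of the match lay 377 bases inside Psmb8, 380 inside Psme1, 281 inside Erap1 and 426 inside Psmb9. The 2 matches of Tapbp lay 3331 and 3414 bases inside that gene. By GENCODE, the 250 bases before its RefSeq start also overlapped exons of Zbtb22 and of the antisense gene Gm19412. The whole 250 bases before the RefSeq starts of Psmb8, Psmb9 and Erap1 overlapped an exon of a protein-coding transcript of the same gene there. Psmb10 and Psme2 held none of the 4 motifs in these windows, and no gene of the 8 held the kB motif. Of the 8 genes 1 held a GAS match, 2 an ISRE and 3 a CCAAT box. Of 32544 promoter windows of the same length 8.33% held a GAS match, 3.45% an ISRE, 37.4% a CCAAT box and 8.49% a kB motif. A match is a string of letters and does not show that a factor was bound in these cells.

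As a check of the labels, the targeted gene Usp16 had 1195 counts in KS against 459 in UKS, a level 2.30-fold lower [2.07 to 2.57] in the UKS library. Its log2 ratio of −1.16 became −0.88, within 2-fold, once the trend with length and GC content described below was taken out. The libraries summed to 26561600 counts in KS and 23205734 in UKS. With these totals scaled by the TMM factors, 1 count was worth 0.0379 and 0.0428 CPM. All 10 fibroblast markers, collagens and Vim among them, were measured in both libraries, and their levels summed to 18862 CPM (KS) and 20987 CPM (UKS). Most of the UKS sum was fibronectin (Fn1), and without it the other 9 summed to 9867 CPM and 6405 CPM. Their median log2 ratio over all 10 was −0.34, with 4 of 10 above 0, and Col1a2 (−0.86), Vim (−0.80), Col3a1 (−0.46) and Col1a1 (−0.21) were below 0. On the log2 scale given below, which adds 1 CPM to each level, Thy1 and Pdgfra were at least 2-fold lower in UKS. None of these markers was at least 2-fold higher on it. Lum had 25 and 52 counts, 2.35-fold higher [1.43 to 3.96] without that addition. With the trend removed, 3 markers were at least 2-fold lower, Vim (−1.14) among them, and 1 was at least 2-fold higher, Lum (1.11). Blood cells carry the immunoproteasome constitutively, so their markers were checked: Adgre1, Itgam and Cd3e were at 0 in both libraries, Ptprc had 2 counts in KS and 1 in UKS, and Itgax had 1 and 4. Coro1a was higher in UKS, at 24 and 59 counts (2.78-fold [1.70 to 4.67]), while Cd68 had 154 and 113. The summed blood cell marker level was 26.0 CPM in KS against 70.5 CPM in UKS, and most of it was Cd14, with 496 and 1455 counts. The part of such cells in the results was not tested. Endothelial markers summed to 31.6 CPM (KS) and 31.7 CPM (UKS), and epithelial markers summed to 13.2 CPM in UKS, less than in KS. Most of the endothelial sum was Eng, at 28.1 CPM in each library, while Pecam1 had 3 and 6 counts. Krt19 made up most of the epithelial sum (16.0 CPM in KS and 11.4 CPM in UKS), while Cdh1 had 1 and 9 counts and Epcam 17 and 5. In bulk RNA, fewer cells of a type and less RNA per cell cannot be told apart.

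The peptide-cutting, capping and transport genes were all higher in the UKS library, and the trimming enzyme and the transactivator were not past 2-fold. On the scale log2((UKS + 1)/(KS + 1)) of CPM, which understates the difference of low genes, 8 of the 10 stood at least 2-fold higher in UKS and none stood at least 2-fold lower. Over all 13015 measured genes the shares were 5.81% for higher and 10.7% for lower. The median log2 ratio of the 10 genes was 1.14, against 0.03 over all measured genes. Together they summed to 694.7 CPM in KS against 1530 CPM in UKS. Ratios between these libraries follow transcript length and GC content, with short and GC-rich transcripts higher in UKS, and 8 of the 10 genes, all but Nlrc5 and Erap1, are of the kind for which this trend gives a positive ratio. With the trend removed, 2 of the 10, Psmb8 and Psmb9, stayed at least 2-fold higher (5.53% of 12997 genes did, or 719), none stood 2-fold lower (4.93%, or 641 genes, did), all 10 were above 0 and the median was 0.82. Both values are given for each gene.

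**Figure D1:**
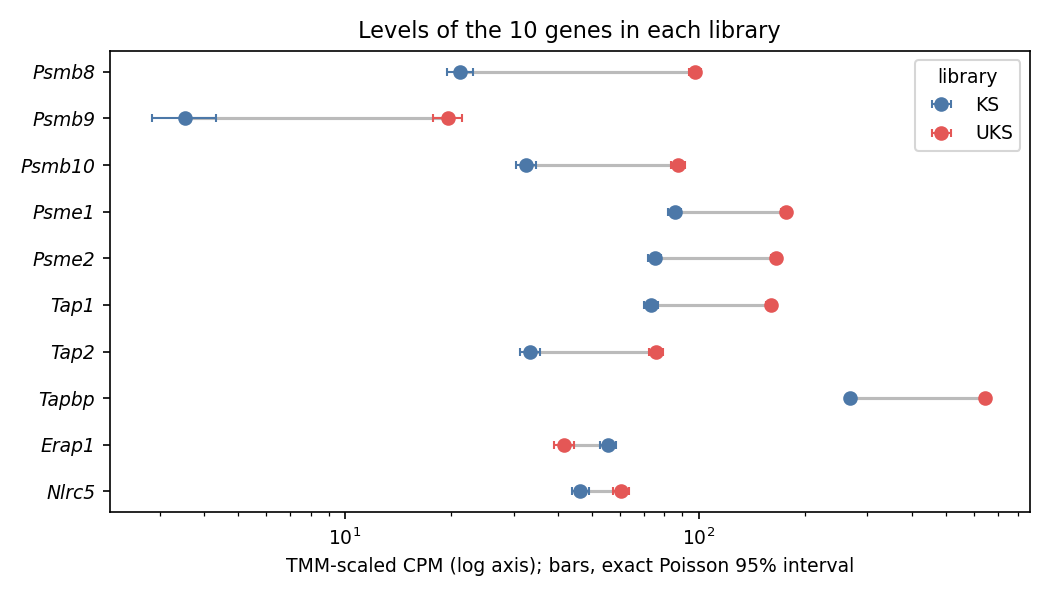
Level of each of the 10 genes in the KS library (blue) and the UKS library (red), in TMM-scaled CPM on a log axis, with exact Poisson 95% intervals of the single counts as bars. The UKS point lies to the right for 9 genes and to the left for Erap1, and the gap is widest for Psmb8 and Psmb9.

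The inducible catalytic subunits held the highest ratios as counted, and with the trend removed Psmb8 and Psmb9 still did, while Psmb10 (0.89) lay between Tapbp (0.92) and Tap2 (0.88). Psmb8, which encodes the chymotrypsin-like subunit LMP7, had 559 counts (21.2 CPM) in KS against 2280 (97.7 CPM) in UKS. It was 4.61-fold higher [4.20 to 5.07], a log2 ratio of 2.15, or 1.70 after the trend was taken out. Of all measured genes 1.21% had a higher ratio than Psmb8. Psmb9, which encodes the subunit LMP2, had the fewest counts of the 10 genes, with 93 counts (3.52 CPM) in KS against 456 (19.5 CPM) in UKS. It was 5.54-fold higher [4.43 to 7.01], a log2 ratio of 2.18, or 1.71 after the trend was taken out. Psmb10, which encodes the trypsin-like subunit MECL-1, went from 859 counts (32.5 CPM) in KS to 2042 counts (87.5 CPM) in UKS. Its ratio was 2.69-fold [2.48 to 2.91], or 1.40 on the log2 scale and 0.89 with the trend removed, and so it differed by less than Psmb8. The ratio of Psmb8 was 1.72 times that of Psmb10 [1.52 to 1.94], and the ratios of Psmb8 and Psmb9 lay within counting error of each other (Psmb8 over Psmb9 0.832 [0.646 to 1.06]).

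Each inducible subunit takes the place of 1 constitutive subunit in the particle, so both were read side by side. The constitutive partners were also somewhat higher in UKS, but none reached 2-fold. Psmb5, the partner of Psmb8, had 2155 and 2817 counts (1.48-fold [1.40 to 1.56]), Psmb6, the partner of Psmb9, had 2943 and 3946 (1.52-fold [1.44 to 1.59]), and Psmb7, the partner of Psmb10, had 3336 and 3841 (1.30-fold [1.24 to 1.36]). With the trend removed, their log2 ratios were 0.01, 0.06 and 0.17. The ratio of Psmb8 to Psmb5 was 3.12 times as high in UKS as in KS [2.80 to 3.48], that of Psmb9 to Psmb6 3.66 times [2.90 to 4.64] and that of Psmb10 to Psmb7 2.06 times [1.88 to 2.27]. These values need neither a library scaling nor a gene length. On the log2 scale the inducible subunit stood 1.69, 1.65 and 0.73 above its partner with the trend removed.

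To compare levels between genes, counts were divided by the length of the longest protein-coding transcript and scaled to a common sum in each library, the TPM scale. Psmb8 stood at 32.2 TPM in KS and 134 TPM in UKS, beside 225 and 300.3 TPM for Psmb5. Psmb9 stood at 6.45 and 32.3 TPM beside 346 and 474 TPM for Psmb6, and Psmb10 at 61.4 and 149 TPM beside 269 and 317 TPM for Psmb7. The constitutive subunit was thus the more abundant transcript of each pair in both libraries on this length. The inducible share of the pair was 12.5% [11.5 to 13.6] in KS and 30.9% [29.7 to 32.1] in UKS for Psmb8, 1.83% [1.48 to 2.24] and 6.39% [5.82 to 6.99] for Psmb9, and 18.6% [17.4 to 19.7] and 32.0% [30.8 to 33.2] for Psmb10. These brackets are exact Clopper-Pearson 95% intervals for counting error. The shares depend on the length chosen: with all exons of a gene merged, the Psmb8 share was 6.45% and 17.7% and the Psmb10 share 34.1% and 51.6%. Transcript shares do not measure the makeup of the assembled particle. Psmb11, the subunit of the thymus proteasome, had 1 count in KS and 0 in UKS, which allows up to 0.128 CPM there.

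**Figure D2:**
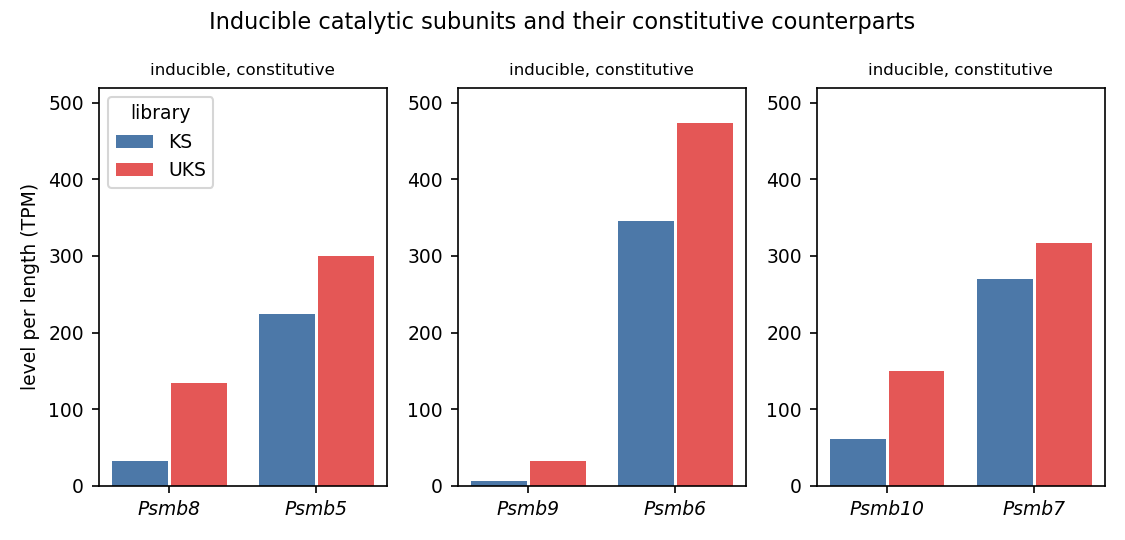
Level per length (TPM, linear axis from 0) of each inducible catalytic subunit and its constitutive counterpart in KS (blue) and UKS (red), 1 library per bar and no error bars. Psmb9 stays the lowest of the inducible subunits, at 6.45 and 32.3 TPM, and the 3 constitutive subunits stand between 225 and 474 TPM.

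The rest of the core particle was measured for context. All 11 core subunits without an inducible counterpart lay within 2-fold as counted, with log2 ratios from 0.07 to 0.57 and a median of 0.33. They stayed within 2-fold with the trend removed, but spread wider, from −0.15 to 0.98 (Psma2), with a median of 0.19. On that scale Psma2 stood above Psmb10 (0.89), Tapbp (0.92) and every other gene of the pathway set except Psmb8 and Psmb9. Of 18 subunits of the regulatory particle that unfolds substrates none was past 2-fold, with a median of 0.21 (−0.01 with the trend removed), and Psmc6 stood lowest at −0.79 (−0.01 with the trend removed). Pomp, the maturation factor that assembles new core particles, had the highest ratio of 5 assembly factors, 1375 and 2006 counts, a log2 ratio of 0.71 as counted and 0.77 with the trend removed. The other assembly factors, Psmg1 to Psmg4, lay between 0.10 and 0.60 as counted and between −0.07 and 0.07 with the trend removed.

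The PA28 cap genes were close to 2-fold higher, and they kept step. Psme1, the alpha subunit, had 2261 counts (85.6 CPM) in KS against 4112 (176 CPM) in UKS, 2.06-fold higher [1.95 to 2.17], a log2 ratio of 1.03 as counted and 0.55 with the trend removed. Psme2, the beta subunit, had 1982 counts (75.1 CPM) and 3856 (165 CPM), 2.20-fold higher [2.08 to 2.32], a log2 ratio of 1.13 as counted and 0.70 with the trend removed. PA28 is a ring of alpha and beta subunits, and per length Psme1 stood at 0.987 times the level of Psme2 in KS and 0.923 times in UKS. The ratio of the pair differed between the libraries by a factor of 0.935 [0.867 to 1.01], within counting error. Psme2b, a retrogene copy of Psme2 that can share its reads, had 19 counts in KS and 2 in UKS. Psme1 sits nearest to the 2-fold line of the 8 higher genes, and a larger pseudocount put it under that line.

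The other proteasome caps did not follow. Psme3, the PA28 gamma cap of the nucleus, had 3129 counts in KS against 3101 in UKS, a ratio of 1.12 [1.07 to 1.18]. Psme4, which encodes the PA200 cap, had 2883 counts in KS against 920 in UKS, 2.77-fold lower [2.57 to 2.99], a log2 ratio of −1.45, or −0.80 after the trend was taken out. Its transcript of 6491 nt is long and low in GC content (43.9%), the kind that was lower in UKS across the transcriptome. The ratio of Psme1 to Psme3 was 1.84 times as high in UKS as in KS [1.71 to 1.97], and that of Psme1 to Psme4 was 5.70 times as high [5.20 to 6.24]. On the log2 scale, Psme1 stood 2.48 above Psme4, and 1.36 above it after the trend was taken out.

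The transporter and tapasin genes formed a narrow group. Tap1 had 1933 counts (73.2 CPM) in KS against 3729 (160 CPM) in UKS, 2.18-fold higher [2.06 to 2.31]. Tap2 had 880 counts (33.3 CPM) and 1767 (75.7 CPM), 2.27-fold higher [2.09 to 2.46]. Tapbp had the most counts of the 10 genes, with 7089 counts (269 CPM) in KS against 15096 (647 CPM) in UKS, 2.41-fold higher [2.34 to 2.48]. Their log2 ratios of 1.11, 1.16 and 1.26 became 0.77, 0.88 and 0.92 once the trend was taken out, all within 2-fold. TAP works as a heterodimer, and per length Tap1 transcripts stood at 2.56 times the level of Tap2 in KS and 2.46 times in UKS. This proportion differed between the libraries by a factor of 0.961 [0.870 to 1.06], within counting error. Tapbp stood at 3.74 times the Tap1 level in KS and 4.13 times in UKS. Zbtb22 overlaps Tapbp on the same strand by 3422 bp, and with 753 and 1012 counts it was much lower than Tapbp in both libraries.

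Psmb9 and Tap1 share the DNA between their starts, and their ratios differed by more than counting error. The ratio of Psmb9 was 2.54 times that of Tap1 [2.01 to 3.23]. Per length, Tap1 transcripts stood at 9.52 times the Psmb9 level in KS and 3.74 times in UKS. Psmb8, with a log2 ratio of 2.15, likewise lies between Tap1 at 1.11 and Tap2 at 1.16, so along this stretch both catalytic subunits had higher ratios than both transporter genes. The counting program's use of strand is not given in the sources used here, and reads from the overlap of Psmb9 and Tap1 may have been counted to either. The class II genes H2-DMa (61 and 134 counts, log2 1.03) and H2-DMb1 (56 and 62 counts, log2 0.23) lie upstream.

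**Figure D3:**
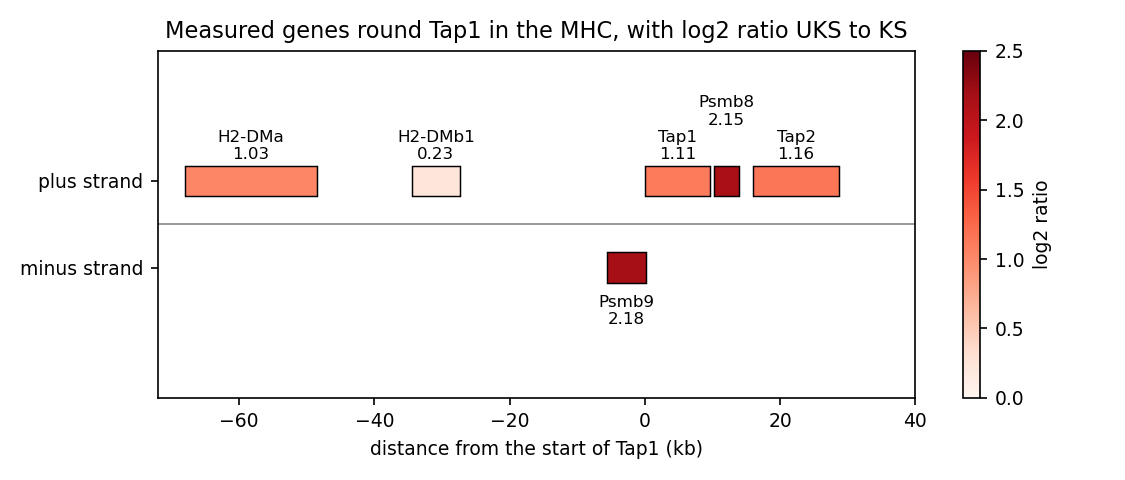
Map of the measured genes round Tap1 by distance from its start in kb, by strand, coloured by log2 ratio of UKS to KS, which is also printed at each gene. Psmb9 at 2.18 and Psmb8 at 2.15 are darker than Tap1 at 1.11 and Tap2 at 1.16.

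Erap1 and Nlrc5 stood apart from the other 8 genes as counted. With the trend removed, Nlrc5 (0.62) lay above Psme1 (0.55), while Erap1 (0.34) stayed the lowest of the 10. Erap1, the aminopeptidase that trims peptides to the length class I molecules hold, had 1460 counts (55.3 CPM) in KS against 971 (41.6 CPM) in UKS, 1.33-fold lower [1.23 to 1.44]. Its log2 ratio of −0.40 became 0.34 once the trend was taken out, so its direction turned with that step. Its transcript is 5644 nt long with 41.5% GC, while the other 9 genes had between 52.6% and 57.3%. Cast, which overlaps Erap1 on the opposite strand by 834 bp, had 8391 counts in KS and 3316 in UKS, and reads from that overlap cannot be told apart without strand. Nlrc5, the transactivator of class I genes, had 1223 counts (46.3 CPM) in KS against 1408 (60.3 CPM) in UKS, 1.30-fold higher [1.20 to 1.41]. Its log2 ratio of 0.37 became 0.62 once the trend was taken out, and 27.1% of all measured genes had a ratio above 0.37. Nlrc5 has the longest transcript of the 10, at 7578 nt. On the same scale none of the 8 partners that form its DNA-bound complex passed 2-fold (median 0.06), with Creb1 lowest at −0.91 (0.23 with the trend removed) and Rfxank highest at 0.45.

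**Figure D4:**
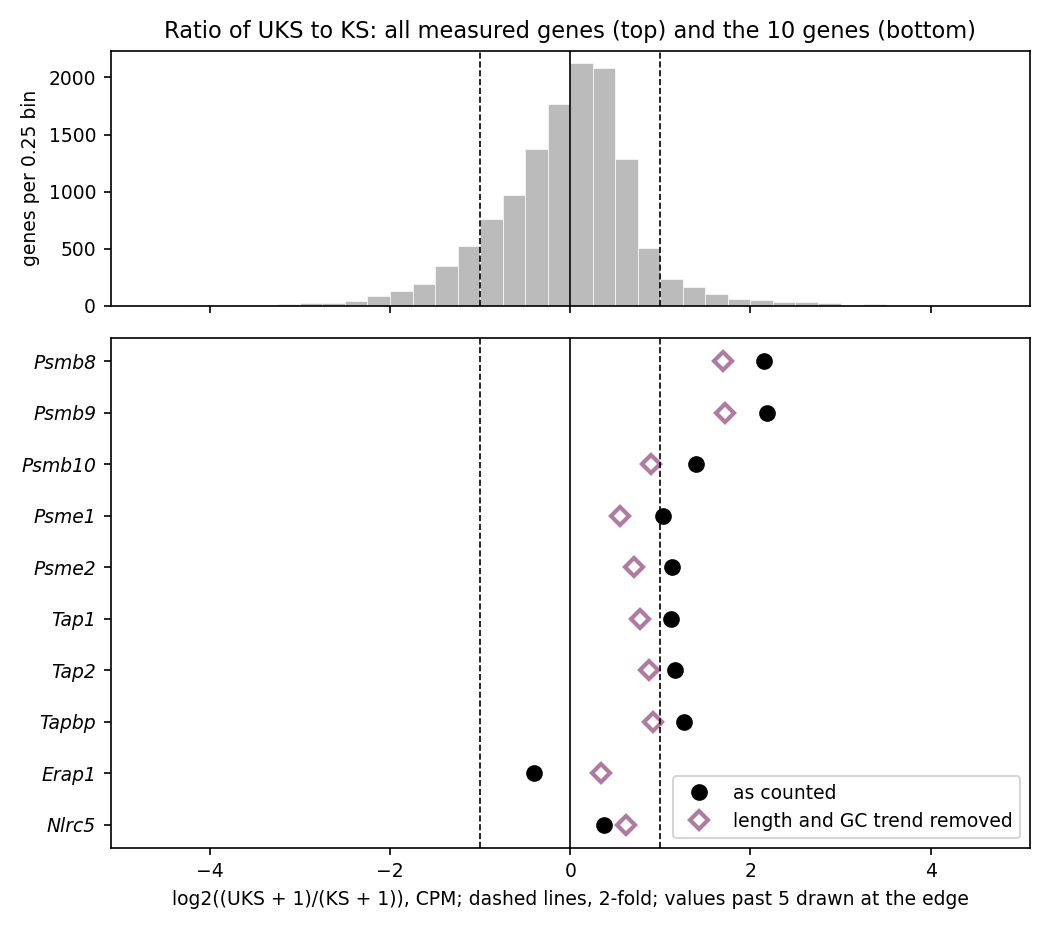
Top, number of measured genes by log2 ratio of UKS to KS in bins of 0.25; bottom, the 10 genes as counted (filled circles) and with the length and GC trend removed (open diamonds), with dashed lines at 2-fold. The circles of 8 genes lie right of the 2-fold line and the diamonds of 2, Psmb8 and Psmb9, and the Erap1 circle and diamond fall on opposite sides of 0.

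Of the class I chains that these genes serve, the classical heavy chains were higher by more than most of the 10 genes. So, as counted, were H2-Q6 (log2 2.41), H2-Q4 (2.35), H2-Q7 (1.92) and H2-T23 (1.28), while B2m, H2-T22 and H2-M3 were not. H2-K1 had 2746 counts in KS against 19077 in UKS (7.85-fold [7.55 to 8.18]) and H2-D1 had 6979 and 32492 (5.26-fold [5.13 to 5.40]), while the light chain B2m had 21447 and 28441 (1.50-fold [1.47 to 1.53]). On the log2 scale as counted, H2-T22 (0.01) and H2-M3 (0.98) had lower ratios than each of the 8 higher genes, as did B2m (0.58). Without the added 1 CPM, H2-M3 (2.08-fold) and Psme1 (2.06-fold) were close. With the trend removed, B2m stood at 0.86, H2-M3 at 0.67 and H2-T22 at −0.27. Psme1, at 0.55, was then below B2m and H2-M3. Reads shared among H2 genes make the value of each uncertain. Of 9 class I chains 6 stood past 2-fold upward and none downward (5 and none with the trend removed, when H2-T23, at 0.87, was within 2-fold). Of 7 general partners of peptide loading in the endoplasmic reticulum none was past 2-fold, as counted or with the trend removed. As counted, calreticulin (Calr) stood at 0.45, the thiol oxidoreductase Pdia3 at 0.02 and calnexin (Canx) at −0.59, with a median of 0.05. With the trend removed, the median was 0.28, 6 of 7 were above 0 and Canx stood at −0.03. The highest of the 7 as counted was Tapbpl (TAPBPR), a tapasin relative that also edits peptides, with 299 and 490 counts, a log2 ratio of 0.83 (0.54 with the trend removed). With the trend removed, Uggt1 was highest at 0.58 (0.05 as counted). Among 7 other antigen peptidases none was at least 2-fold higher, while Lnpep (1903 and 465 counts) and Tpp2 (3280 and 1437 counts) were at least 2-fold lower, and within 2-fold after the trend was taken out (log2 −0.44 and −0.33).

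Factors upstream of the pathway were mostly within 2-fold. Of 8 measured IRF and STAT genes only Irf7, a regulator of the type I interferon response, was at least 2-fold higher (3817 and 9569 counts, 2.83-fold [2.73 to 2.94]; log2 1.50, and 1.12 with the trend removed). Irf1, a known activator of the Psmb9 and Tap1 promoter, had 1152 and 1959 counts and a log2 ratio of 0.93 (0.63 with the trend removed). Irf8 fell under the filter, with 4 counts in KS and 38 in UKS. Of 5 NF-kB subunits Relb was past 2-fold (777 and 1755 counts, log2 1.32, and 0.86 with the trend removed), with Nfkb2 at 0.98. Of 7 interferon receptor and kinase genes none was past 2-fold. Ifngr2 was highest at 0.83 (0.84 with the trend removed) and the kinase Jak2 lowest at −0.82 (−0.34 with the trend removed).

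Transcripts of the 5 interferon genes looked at were close to undetected in both libraries. Ifng, Ifnl2 and Ifnl3 had 0 counts in KS and in UKS, which allows up to 0.114 and 0.128 CPM, Ifna4 had 0 and 1 count and Ifnb1 had 4 and 7. Of 11 measured GTPases known to be induced by interferon-gamma 4 stood past 2-fold upward and none downward, with a median of 0.85 (0.97 with the trend removed, when 5 were higher). Tgtp2 (303 and 1207 counts, log2 2.08), Gbp5 (68 and 293, log2 1.92), Gbp6 (304 and 997, log2 1.80) and Gbp2 (2418 and 4867, log2 1.18) were the 4, and reads shared within these families make single values uncertain. Tgtp1, a close relative of Tgtp2, had 661 and 441 counts (log2 −0.39). The class II pathway, which interferon-gamma also induces through CIITA, was scarcely present: 8 of its 10 genes were under the filter, Ciita had 4 counts in KS and 2 in UKS, and Cd74 had 16 and 32. Of the 2 measured, H2-DMa was at least 2-fold higher in UKS as counted (log2 1.03) and within 2-fold with the trend removed (0.63). H2-DMb1 stood at 0.23 as counted.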

How the data were processed

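RNA-seq libraries of the 2 lines were prepared with a TruSeq RNA kit, per the labels' protocols. The submitters' processing notes name HISAT2, StringTie and the build GRCm38.p5 and give no role or version for them. The deposited files hold estimated counts per gene, 1 file per library, which were rounded to whole numbers here; which program counted and whether it used strand is not given in the sources used here. TMM factors (0.994 for KS, 1.01 for UKS) came from edgeR 4.0.16, intervals from scipy 1.17.1, and coordinates, lengths and GC content from GENCODE M21 (GRCm38), which held 51719 of the 51912 gene identifiers. The longest protein-coding transcript stood for each gene. The pseudocount was 1 CPM, and the floor for a count of 0 was 3 counts. The trend of the ratio with transcript length and GC content was fitted by robust regression (statsmodels 0.14.6) on cubic terms over genes in none of the lists and subtracted; a real difference that follows these properties would be taken out too. The steps were tested on simulated data. The 10 genes and the lists were chosen with earlier results of these data known. Genes were named by a fixed rule: all 10 genes, Usp16, the subunits that pair with them or replace them, the class I chains H2-K1, H2-D1 and B2m, of each other list up to 4 members with the largest absolute ratio, and of marker lists those at 0 and up to 4 of the highest level. Some further genes were named after their values were seen: Irf8, Ptprc, Itgax, Thy1, Pdgfra, H2-T22, H2-M3, Tgtp1, Ciita, Cd74, Pdia3, Psmg2, the interferon genes and the genes that overlap or adjoin the 10. Also named after their values were seen were Lum, Col3a1, H2-Q4, H2-Q6, H2-Q7, H2-T23, Psma2, Uggt1, Gbp7, Pecam1, Cdh1 and Epcam. A further engineered allele that both lines carry, and some genes of the lists, are not reported here.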

Additional observations from a re-analysis of the deposited data

How the results depend on the processing

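No paired analysis was possible because each group has 1 library. Removing the trend with length and GC content left 2 of the 10 genes at least 2-fold higher in place of 8, a median log2 ratio of 0.82 in place of 1.14, and 641 of all genes at least 2-fold lower in place of 1396, while 719 in place of 756 were at least 2-fold higher. It turned the log2 ratio of Erap1 to 0.34. The cause was not tested. A pseudocount of 5 CPM left 412 genes higher, 836 lower and 7 of the 10 higher. With merged exons as the gene length, the inducible share in KS and UKS was 6.45% and 17.7% for Psmb8 and 34.1% and 51.6% for Psmb10, and 5.58% in UKS for Psmb9. DESeq2 size factors (DESeq2 1.42.0), plain totals, totals without the 10 most abundant genes of each library, no rounding, a pseudocount of 0.25 CPM, no filter and a filter of 5 CPM each left 8 of the 10 higher and none lower, and the 3 other scalings moved no gene of the 10 by more than 0.05 on the log2 scale. Summing Psme2 and Psme2b, an alternative chosen after seeing the data, moved Psme2 by less than counting error. Psmb9, with 93 counts in KS, is the gene of the 10 whose ratio depth limits most.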

Other observations

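The chromosome segments round the 10 genes were compared with them, taking measured genes whose start lay within 250 kb. Psmb10 had 16 such neighbours, all within 2-fold, with a median log2 ratio of 0.25 and a highest value of 0.79 (Acd), against 1.40 for Psmb10 itself. With the length and GC trend taken out, their median was 0.03 and the highest value 0.54 (Gfod2), against 0.89 for Psmb10. Psme1 and Psme2 had 20 other neighbours, all within 2-fold, with a median of 0.47. With that trend taken out, their median was 0.15 and the highest value 0.49 (Tinf2), against 0.55 for Psme1 and 0.70 for Psme2. Among these 20 neighbours was Irf9, a subunit of the interferon-activated factor ISGF3, with 3735 counts in KS and 4624 in UKS (log2 0.48 as counted). Of the 16 neighbours of Tap1 that are not among the 10, H2-K1 (2.96), H2-K2 (2.13, annotated as a pseudogene) and H2-DMa (1.03) were at least 2-fold higher and none stood 2-fold lower, and the median was 0.44 (0.05 with the length and GC trend taken out, when H2-DMa, at 0.63, was within 2-fold). Tapbp had 30 neighbours, of which 5 were at least 2-fold higher and none 2-fold lower, or 3 and none with the trend taken out. The highest of them was Angptl4, a secreted inhibitor of lipoprotein lipase, with 53 counts in KS and 926 in UKS (log2 3.76). Nlrc5 had 8 neighbours, of which the chemokine gene Cx3cl1 (1422 and 2780 counts, log2 1.13) was at least 2-fold higher, and with the trend taken out none was (Cx3cl1 0.83). Round Erap1, 4 of 7 neighbours were at least 2-fold lower and the median was −1.13, with Cast, the calpain inhibitor gene, at −1.16. None of these 7 was 2-fold lower with that trend taken out, when their median was −0.46 and Cast stood at −0.56. The neighbours Acd, Gfod2, Tinf2, Angptl4, H2-K2, Cx3cl1 and Cast were singled out after their values were seen.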
